A study of Sus scrofa with 6 samples.

Results

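The let-7 and miR-98 family was followed in left atrial (LA) RNA of pigs with and without induced paroxysms of atrial fibrillation (AF). Its probes were chosen by name alone, as those whose name begins with let-7 or is miR-98, and 9 of the 322 pig miRNA probes on the array met this rule. The paced group consisted of 3 pigs whose right atrium was burst-paced through a catheter under a beta blocker given beforehand, with brief self-terminating AF, and the sham-control group of 3 pigs that received no burst pacing. The LA was taken on the day after pacing, and each animal had its own 1-colour Cy3 array. The sample labels call the animals neonatal piglets, whereas the study's methods give Large White pigs of several months. No genetic change was made in either group, and the methods do not say whether the sham animals received the beta blocker.

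The let-7 miRNAs are short regulatory RNAs that are cut from hairpin precursors and loaded into Argonaute. They repress mRNAs that pair with the seed, the bases near the 5′ end of the miRNA. The family was first described as a developmental timing gene of the worm, rises as animal tissues differentiate, and represses growth genes such as HMGA2, RAS genes and LIN28, which in turn blocks let-7 maturation. It is abundant in adult heart muscle. miR-98 belongs to the family by its seed although its name does not show it.

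The target sequences given in the array files are shown because the members differ by so few bases that their likeness bears on each comparison. Capitals mark the seed, bases 2 to 8 from the 5′ end, and the sequences run 5′ to 3′.
let-7a: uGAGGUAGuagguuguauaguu
let-7c: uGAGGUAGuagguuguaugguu
let-7e: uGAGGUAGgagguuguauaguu
let-7f: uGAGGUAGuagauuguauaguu
let-7d-5p: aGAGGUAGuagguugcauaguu
let-7g: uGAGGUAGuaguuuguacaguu
let-7i: uGAGGUAGuaguuugugcu
miR-98: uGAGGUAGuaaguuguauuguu
let-7d-3p: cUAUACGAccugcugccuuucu
The seed GAGGUAG was shared by 8 members and by no other of the 322 targets. let-7d-3p, the opposite arm of the let-7d hairpin, has the seed UAUACGA, which no other target has. With positions counted from the 5′ end and the base of let-7a first, let-7c differs from let-7a by A19G, let-7e by U9G and let-7f by G12A. let-7d-5p differs by U1A and U16C, let-7g by G12U and U18C, and miR-98 by G11A and A19U. The target given for let-7i has 19 bases, where the others have 22, and over these it differs from let-7a by G12U, A17G, U18C and A19U. The GC content of the 8 seed-sharing targets was 31.8% to 42.1%, against a median of 47.6% over all targets. How far each probe also bound other members was not tested.

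RefSeq genes of the pig assembly Sscrofa11.1 held a gene for each of the 9 members, and let-7a and let-7f had 2 each, so their probes read the products of both. Of the 10 genes, 8 had another miRNA gene within 10 kb. One let-7a gene, one let-7f gene and the let-7d gene lay together, and the other let-7f gene lay beside the miR-98 gene within HUWE1, which encodes a ubiquitin ligase. The gene of let-7c lay beside that of miR-99a, the other let-7a gene beside that of miR-100, and the let-7e gene beside those of miR-125a and miR-99b. The genes of let-7g, within WDR82, and of let-7i had no miRNA neighbour in that distance.

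The background was read from 786 empty spots per array, whose median signal was 64.7 to 214 scanner units in sham and 242.5 to 399 units in paced animals, without overlap. The cutoff for a probe to be well above background lay 3 SD of the empty spots over their median, and the median of the 9 repeat spots of the probe had to pass it. Between 104 and 175 probes met this on an array, and 104 met it on all 6. The tissue label was checked against marker miRNAs. Of 7 striated muscle probes, 5 were well above background on all arrays, among them miR-1 and miR-133a-3p, while none of the 6 epithelial, liver and neuronal probes was so on any array. Summed over the 7 muscle probes, the log2 signal was 15.88 to 15.94 in sham and 15.83 to 16.07 in paced animals. Over 4 smooth muscle probes, of which 2 passed the background cutoff on every array, it was 14.23 to 14.49 in sham and 14.07 to 14.22 in paced animals, without overlap. Over 5 blood cell probes, of which 1 did so, it was 13.60 to 14.08 in sham and 13.05 to 13.61 in paced animals. Over 2 endothelial probes, of which 1 did so, it was 13.03 to 13.29 in sham and 12.99 to 13.20 in paced animals. The smooth muscle, blood and endothelial lists each held 1 probe at an unadjusted p of at most 0.05 in limma, beside 10.6% of all probes. Of all single probes, 17.4% did not overlap between the groups. The part of these shifts and of the unequal empty spots in the results was not tested.

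Of the 9 members, 8 were well above background on all 6 arrays. let-7a, let-7f, let-7c, let-7d-5p, let-7g and let-7i were among the brighter probes of every array. Values of a group are given here in the order of its replicates 1 to 3. The scanner signal of let-7a, as the median of its spots, was 8978, 7792 and 8449 units in the sham and 5654, 8231 and 8343 units in the paced animals. These signals were 41.9, 120 and 72.0 times the empty-spot median in the sham and 14.2, 33.9 and 31.9 times in the paced replicates. Sham and paced animals thus did not overlap in signal over background, while the let-7a signals themselves overlapped and the empty-spot medians did not. The signal over background did not overlap for any of the 9 members. It was not counted over the other probes, so it is not read as a result about the family. The brightest let-7 spot of any array had 9843 units, below the brightest spot of that array at 57881 units. let-7d-3p and miR-98 were dim, at 1.47 to 6.42 and 1.13 to 4.69 times the empty-spot median. miR-98 had 452 units on paced replicate 1, under the threshold of 549.6 units there, and was well above background on the other 5 arrays. When only the 15 nearest empty spots served as background, miR-98 passed on all 6.

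**Figure D1:**
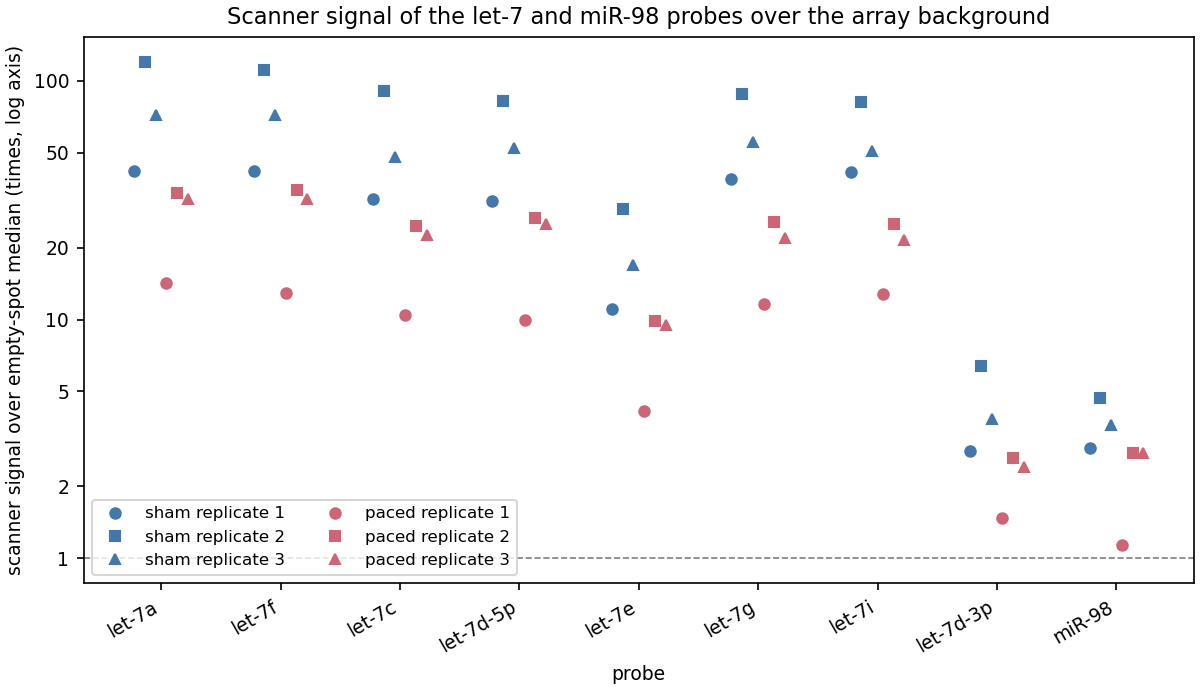
Median scanner signal of each let-7 and miR-98 probe divided by the empty-spot median of the same array (log axis, 9 probes, points for the 6 arrays, dashed line at 1). let-7d-3p and miR-98 lie between 1.13 and 6.42 times the background, and for each of the 9 probes the 3 paced arrays lie below the 3 sham arrays. The empty-spot medians themselves do not overlap between the groups, and the other probes were not counted.

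Spot brightness depends on the probe as well as on the miRNA, so the order of the probes by signal is given only as a description. By the mean log2 value over the 6 arrays let-7a ranked 17, let-7f 19, let-7g 24, let-7i 25, let-7d-5p 29, let-7c 30 and let-7e 50 among the 322 probes. let-7d-3p ranked 101 and miR-98 106. The mean values of let-7a and let-7f differed by less than the spread between animals, and so did those of let-7g and let-7i, those of let-7d-5p and let-7c, and those of let-7d-3p and miR-98. The median rank of the 9 probes was 29.

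Scanner values were background-corrected, quantile-normalized and put on a log2 scale, and limma was then fitted to the 322 probes, paced against sham. None of the 9 members passed the test. The count was 0 at the methods' unadjusted threshold of 0.05, by limma and by the methods' test alike, and 0 after Benjamini-Hochberg adjustment. Over all probes 34 reached the unadjusted threshold (10.6%), 11 of them higher in paced animals (3.42%) and 23 lower (7.14%), and 0 reached the adjusted one. The excess of lower probes turned to 19 higher and 17 lower against the nearest empty spots, and to 20 and 11 in limma on the authors' processed values. It was 176 and 5 with scaling to the median of detected probes, and 15 and 0 without normalization between arrays. Under the other settings more probes were lower than higher. Among them were the methods' test on the processed values (13 and 16), cyclic loess (13 and 18) and plain background subtraction (12 and 20). Among the 104 probes seen over background on every array, 3.85% reached the unadjusted threshold in the main fit. Paced and sham values overlapped for each of the 9 members, whereas 17.4% of all probes, and 4.81% of those 104, did not overlap. The median difference of the 9 members, paced minus sham, was 0.08 on the log2 scale, beside 0.00 over all probes and -0.03 over those 104, and 7 of the 9 differences were above 0, beside 51.2% of all probes and 39.4% of those 104. This direction rests on the scaling, since without normalization between arrays only the difference of miR-98 was above 0, and with scaling to the median of detected probes only those of let-7d-3p, let-7e and miR-98. The median difference of all probes was 0.27 and 0.44 under these settings. In these bulk samples, fewer cells of a type and less RNA per cell cannot be told apart.

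**Figure D2:**
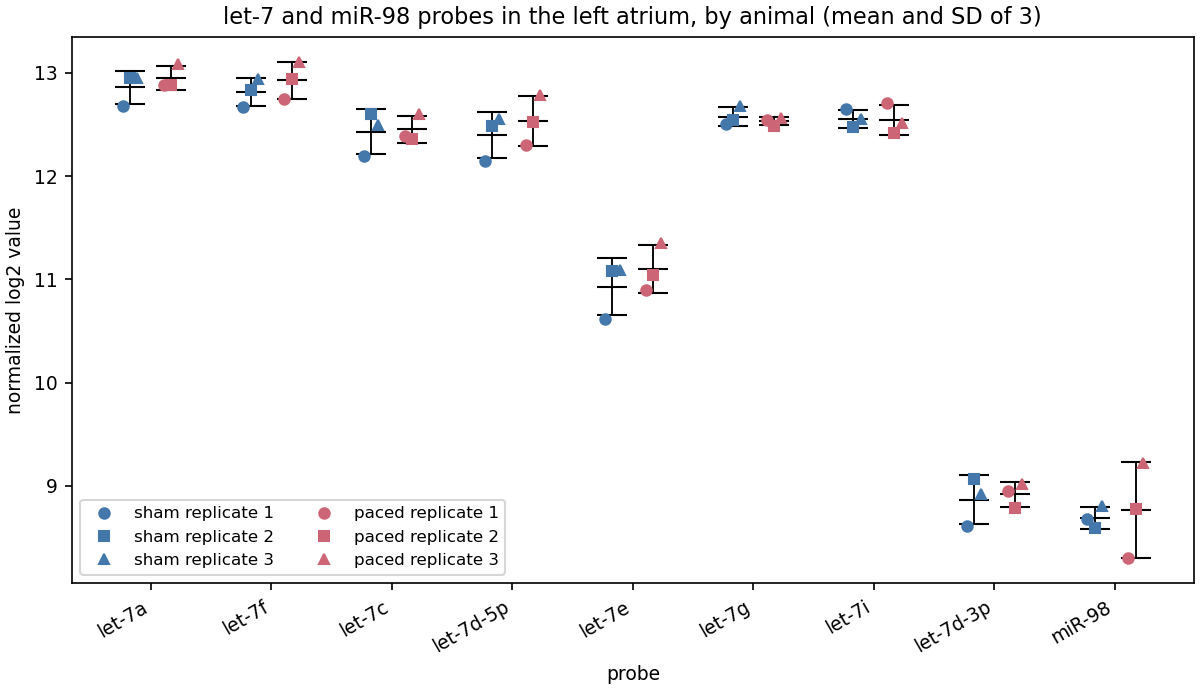
Normalized log2 value of each let-7 and miR-98 probe in the 3 sham and 3 paced animals (points, marked by replicate), with the mean and SD of each group as bars. The groups overlap for all 9 probes, and miR-98 in paced animals spans 8.30 to 9.22.

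ssc-let-7a, the sequence from which the others are counted here, had normalized log2 values of 12.68, 12.95 and 12.95 in the sham animals and 12.88, 12.88 and 13.08 in the paced animals. The highest value was that of a paced animal and the lowest that of a sham animal, with the other 4 between. The sham mean was 12.86 ± 0.16 and the paced mean 12.95 ± 0.12 (SD, n = 3 each), so that let-7a differed by 0.09 between them (SE 0.11, adjusted p = 0.792 in limma). For ssc-let-7f the sham values were 12.67, 12.84 and 12.94 and the paced values 12.74, 12.94 and 13.10. Again sham replicate 1 was lowest and paced replicate 3 highest. let-7f differed by 0.11 (SE 0.12, adjusted p = 0.750 in limma).

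ssc-let-7c, with a gene beside miR-99a, had values of 12.19, 12.61 and 12.50 in sham and 12.39, 12.36 and 12.61 in paced animals. It differed by 0.02 (SE 0.13, adjusted p = 0.963 in limma). The highest sham and paced values were alike. For ssc-let-7d-5p, with the changes U1A and U16C, the values were 12.14, 12.48 and 12.56 in sham and 12.30, 12.52 and 12.79 in paced animals. let-7d-5p differed by 0.14 (SE 0.16, adjusted p = 0.776). ssc-let-7e, with a gene beside miR-125a and miR-99b, had the largest difference among the 9 members, 0.17 (SE 0.17, adjusted p = 0.750). Its values were 10.61, 11.08 and 11.09 in sham and 10.90, 11.04 and 11.35 in paced animals. In both miRNAs sham replicate 1 was the lowest and paced replicate 3 the highest animal. The other 4 were mixed between the groups in let-7d-5p. In let-7e the other paced animals, at 10.90 and 11.04, lay below the other sham animals, at 11.08 and 11.09.

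ssc-let-7g and ssc-let-7i, which share G12U and U18C, were the members with mean values lower in paced animals, though that of let-7i turned with cyclic loess, with the median of repeat spots and on the authors' processed values. let-7g had values of 12.51, 12.54 and 12.68 in sham and 12.55, 12.49 and 12.56 in paced animals, with paced minus sham at -0.05 (SE 0.07, adjusted p = 0.851 in limma). This was the steadiest member, with all animals within 0.20 log2 units. let-7i had values of 12.65, 12.47 and 12.55 in sham and 12.70, 12.41 and 12.52 in paced animals, with paced minus sham at -0.01 (SE 0.10, adjusted p = 0.968). Its highest and its lowest animal were both paced.

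ssc-let-7d-3p, the other arm of the let-7d hairpin, had values of 8.61, 9.06 and 8.92 in sham and 8.95, 8.78 and 9.02 in paced animals, with paced minus sham at 0.05 (SE 0.13, adjusted p = 0.906 in limma). The sham animals were the more spread. The log2 ratio of let-7d-3p to let-7d-5p was -3.53 ± 0.11 in the sham and -3.62 ± 0.24 in the paced group (SD, n = 3 in each), which an exact permutation test did not separate (two-sided, p = 0.6). Only the change of such a ratio can be read, because the probes differ. For ssc-miR-98 the values were 8.67, 8.59 and 8.80 in sham and 8.30, 8.77 and 9.22 in paced animals. The paced animals held both the lowest and the highest value, and paced minus sham, at 0.08 (SE 0.22, adjusted p = 0.914), was within their spread. The lowest of these values, on paced replicate 1, is the one that was not well above background. The offset used in the background correction compresses differences of dim probes such as these.

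The 95% intervals of the differences show what sizes remained possible with 3 animals per group. For let-7g the interval was 0.857 to 1.09-fold, paced over sham, and for let-7i it was 0.847 to 1.16-fold. For let-7a it was 0.893 to 1.27-fold and for let-7f 0.892 to 1.31-fold. The intervals of let-7c and let-7d-3p were 0.823 to 1.25-fold and 0.834 to 1.29-fold. Those of let-7d-5p and let-7e reached 1.43-fold and 1.49-fold at the upper end, and that of miR-98 ran from 0.734 to 1.52-fold. The width rests on the processing, and with plain background subtraction the SE of miR-98 was 0.47 in place of 0.22. The missed threshold does not show that the groups were alike.

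**Figure D3:**
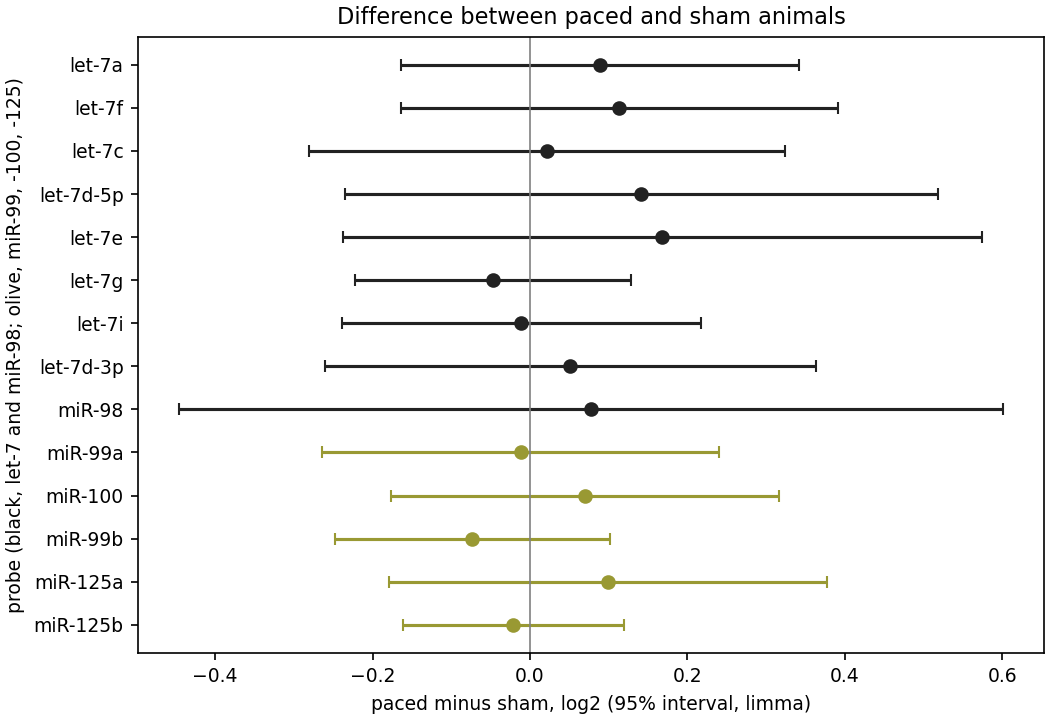
Difference between paced and sham animals on the log2 scale (point) with its 95% interval from limma (bar), for the 9 let-7 and miR-98 probes in black and the 5 probes of the miR-99, miR-100 and miR-125 families in olive. Each interval includes 0, and that of miR-98 is the widest.

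The 5 probes of the miR-99, miR-100 and miR-125 families, which include the gene neighbours named above and miR-125b, which is not among them, were all well above background on the 6 arrays. The count that passed the unadjusted threshold was 0 of 5 in either direction. The differences were 0.07 (SE 0.10) for miR-100, 0.10 (SE 0.12) for miR-125a, -0.02 (SE 0.06) for miR-125b, -0.01 (SE 0.11) for miR-99a and -0.07 (SE 0.07) for miR-99b, with adjusted p values in limma from 0.750 to 0.968. Their median difference was -0.01. miR-125a and let-7e, which are neighbours, both had positive differences, whereas that of miR-99b on the other side of let-7e was negative. The 95% intervals of all 3 differences included 0.

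Each probe had 9 repeat spots, which gives the measuring error within an array. The SD between repeat spots was 0.09 to 0.15 log2 units for 8 members and 0.23 for miR-98. The standard error of the mean of a probe on an array was therefore 0.03 to 0.08. The SD between animals within the groups was 2.28 times this error for let-7g, 4.30 times for let-7a, 5.98 times for let-7e and 6.54 times for let-7d-5p. With 1 array per animal, differences between animals and between hybridizations cannot be told apart. Ranked within those 104 probes, the SD between animals of let-7g was at percentile 7.21 and that of let-7i at 24.5. Those of let-7d-5p and let-7e were at percentiles 75.5 and 81.2, so the family held both steady and variable probes.

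In the normalized values, the arrays differed along a pattern that several members shared. As deviations from the mean of each probe over the 6 arrays, sham replicate 1 had -0.40 in let-7e, -0.32 in let-7d-5p, -0.28 in let-7d-3p, -0.25 in let-7c, -0.23 in let-7a and -0.20 in let-7f. Paced replicate 3 had deviations of 0.34, 0.32, 0.13, 0.16, 0.18 and 0.23 in these 6 probes in the same order. Sham replicate 1 was thus the lowest array in these 6 probes. Paced replicate 3 was the highest except in let-7d-3p, where sham replicate 2 had 0.17. In let-7c both of these arrays had 0.16. let-7i departed from this pattern, with a deviation of 0.10 on sham replicate 1, 0.15 on paced replicate 1 and -0.03 on paced replicate 3. The deviations of let-7g were -0.05, -0.01 and 0.00 on these 3 arrays. miR-98 had its extremes on 2 paced animals, with -0.43 on paced replicate 1 and 0.50 on paced replicate 3. In scanner signal sham replicate 1 was not the lowest array. It was the highest of the 6 for let-7a, let-7c, let-7d-5p and let-7f, at 8978, 6830, 6721 and 8989 units. For let-7e and let-7d-3p it had 2371 and 601 units, above some arrays and below others. In the authors' processed values sham replicate 1 was lowest for let-7d-3p, let-7d-5p, let-7e and let-7f. For let-7a and let-7c paced replicate 1 was lowest.

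**Figure D4:**
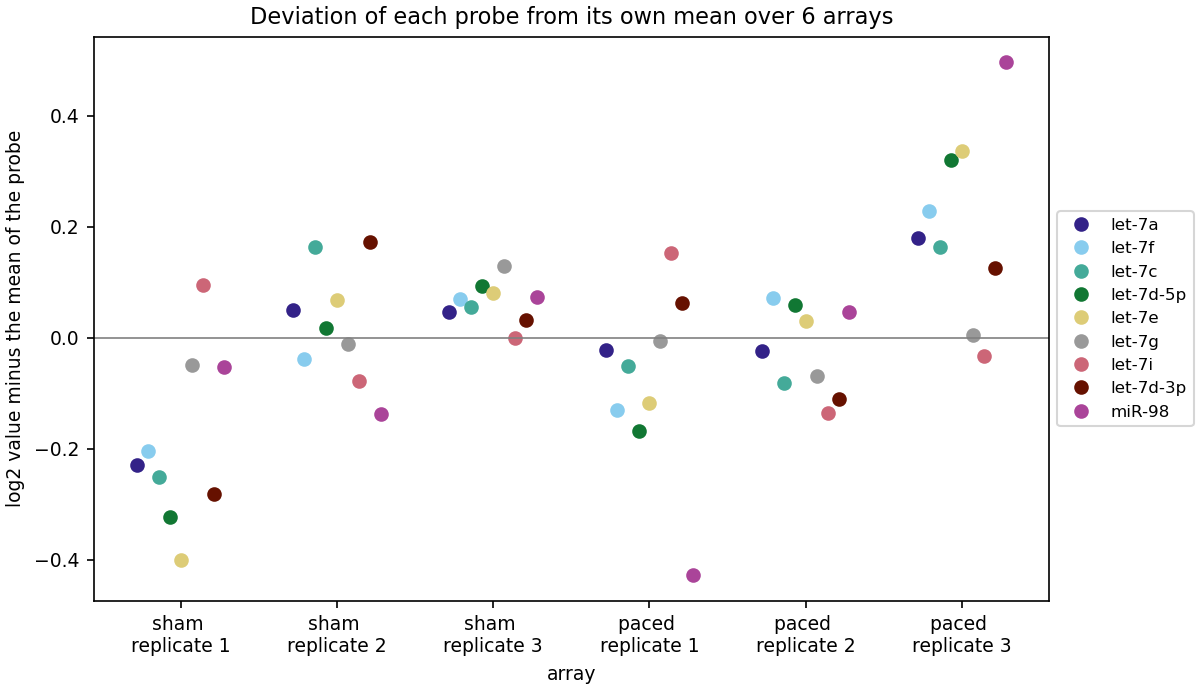
Normalized log2 value of each let-7 and miR-98 probe minus its own mean over the 6 arrays, by array (9 points per array). On sham replicate 1 let-7e is at -0.40 and let-7i at 0.10, and on paced replicate 3 let-7e is at 0.34 and let-7i at -0.03.

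The log2 ratio of let-7e to let-7i on the same array showed the departure of let-7i plainly. It was -2.03, -1.39 and -1.46 in the sham and -1.81, -1.37 and -1.17 in the paced animals, a span of 0.87. The replicates numbered 1 were lowest in both groups. Taken from the scanner medians less the empty-spot median, with no normalization between arrays, the same ratio was -2.001, -1.52 and -1.64 in sham and -1.91, -1.44 and -1.27 in paced animals, a span of 0.73. The ratio of let-7f to let-7i, normalized, was 0.02, 0.36 and 0.39 in sham and 0.04, 0.53 and 0.59 in paced animals. The ratio of let-7a to let-7c moved far less, with a span of 0.17. None of the 36 ratios between 2 members separated paced from sham animals in the normalized values (exact permutation test, two-sided, where 3 animals against 3 cannot give a p below 0.1). Among the 28 ratios between the 8 members well above background on all arrays, 0 did not overlap between the groups, beside 4.85% of the ratios between all pairs of such probes. In the scanner values the count was 3 of 28, beside 4.93%. These 3 were let-7d-5p to let-7e, let-7d-5p to let-7f and let-7e to let-7f, and they were chosen after their values were seen.

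The likeness of 2 probes was measured as the root mean square (RMS) distance between their deviations over the 6 arrays. Over the 28 pairs of the seed-sharing members, the distance was 0.05 to 0.11 for the 3 pairs that differ by 1 base, with a median of 0.07. The median was 0.11 over the 9 pairs with 2 differences, 0.13 over the 7 pairs with 3, and 0.21 over the 7 pairs with 4. The single pairs with 5 and 6 differences, let-7e and let-7d-5p each against let-7i, had distances of 0.29 and 0.28. Pairs of more unlike targets therefore tended to be farther apart, with no test, since each member enters 7 pairs. Every pair with 4 or more differences holds let-7i or let-7g, except miR-98 with let-7d-5p, so these 2 probes weigh heavily in this tendency. The differences of let-7i are counted over 19 bases. Exceptions with 3 differences were let-7d-5p with let-7e, at the smallest distance of all pairs, 0.05, and let-7d-5p with let-7f, at 0.07. The farthest pairs at 2, 3 and 4 differences each held miR-98, the dimmest of these probes, but miR-98 with let-7d-5p was the closest pair at 4, with 0.18. Whether binding of a member to the probe of another has a part in this was not tested.

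**Figure D5:**
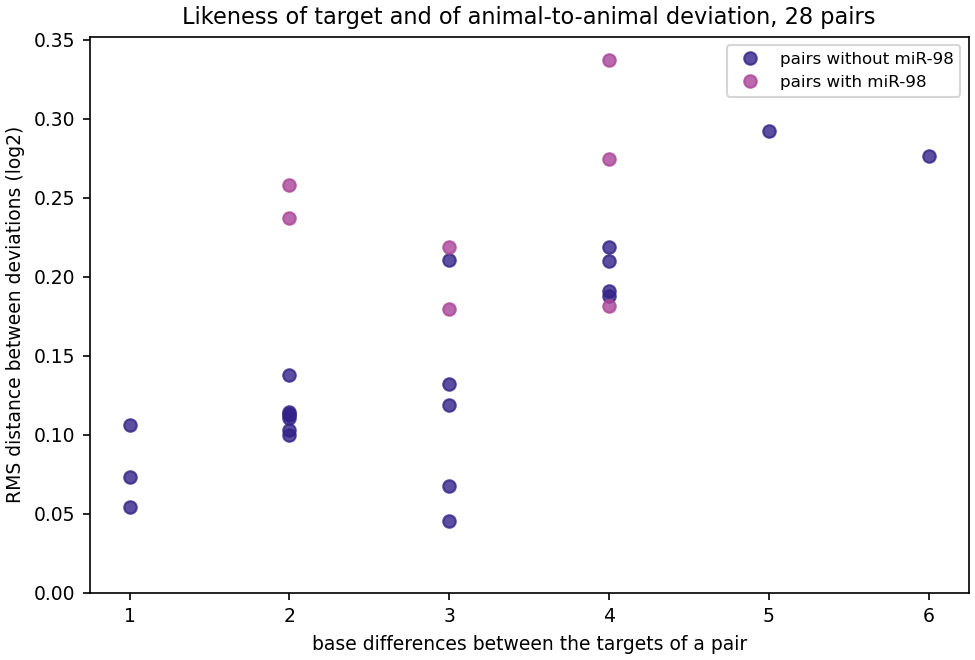
RMS distance between the deviations of 2 probes over the 6 arrays (vertical axis, log2 units) against the number of base differences between their targets (horizontal axis), for 28 pairs of the 8 seed-sharing members, with pairs that include miR-98 in purple. The median distance is 0.07 at 1 difference and 0.21 at 4 differences. Every pair with 4 or more differences holds let-7i or let-7g, except miR-98 with let-7d-5p.

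Genomic neighbours were not always alike in this measure. Of the 103 other probes compared, let-7d-5p was the closest to let-7f and let-7a the next closest, and genes of all 3 lie together. From let-7a, however, let-7d-5p was at position 10, and the closest probe to let-7d-5p was let-7e, whose gene is not among these. miR-98, beside the other let-7f gene, was at position 29 from let-7f. miR-125a was at position 7 from let-7e, with a distance of 0.12. miR-99b was at position 27 from let-7e, miR-100 at position 30 from let-7a and miR-99a at position 65 from let-7c. The closest probe to let-7g was miR-99b, at 0.04, and the closest to let-7i was miR-17-5p, at 0.06. No family member was among the 5 closest probes of let-7g or let-7i, whereas each of the other 6 had 2 or 3.

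Against the median deviation of the 8 members well above background on all arrays, the 3 closest of 96 probes outside the family were miR-92b-3p, miR-191 and miR-574, with RMS distances of 0.07, 0.08 and 0.08 over the 6 arrays. On sham replicate 1, where the median of the 8 members was at -0.24, they had deviations of -0.27, -0.11 and -0.38. On paced replicate 3, where that median was at 0.17, they had 0.11, 0.05 and 0.22. These values follow from the choice of the probes by likeness and are a description.

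In the authors' own processed intensities let-7a averaged 7587 ± 447 in the sham group against 7615 ± 838 in the paced group (SD, n = 3 in each). let-7g had 5976 ± 289 and 5806 ± 156 (SD, n = 3 in each group), and let-7e 1787 ± 267 and 2027 ± 279 (SD, n = 3 in each group). The difference between groups was below the SD of both groups for let-7a and let-7e, and for let-7g it was below that of the sham group only.

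The differences moved when single animals were left out. Without sham replicate 1 that of let-7e was 0.02 and that of let-7d-5p 0.01. Without paced replicate 1 that of let-7f was 0.22 (SE 0.11, adjusted p = 0.290 in limma), that of let-7d-5p 0.26 (SE 0.14, adjusted p = 0.352) and that of miR-98 0.33 (SE 0.15, adjusted p = 0.278). No member reached the unadjusted threshold with any 1 animal left out.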

How the data were processed

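LA RNA of 3 sham and 3 paced pigs was hybridized to 1 array per animal, and groups and replicate numbers were taken from the sample titles. The p values measure the spread between these 6 arrays. The authors deposited linear scanner intensities, a median per spot with its background, and processed intensity values by methods not given in the sources used here. Spots of 322 probes (9 repeats each) and 1070 control spots were read. All spots were corrected with normexp in limma (version 3.58.1, R 4.3.3, offset 50). Control spots were then left out, and miRNA spots were quantile-normalized, put on a log2 scale and averaged per probe. lmFit and eBayes compared the groups over all probes, with Benjamini-Hochberg adjustment, and no column of another series was used. The number of arrays limits the precision. The fit was tested on simulated data.

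The named miRNAs are every let-7 and miR-98 probe, all miR-99, miR-100 and miR-125 probes, any other probe with the let-7 seed (none was found), and the 3 probes outside the family whose deviations lay closest to the family median. Closest probes of single members were named after their values were seen. The members and lists were chosen with earlier results of these data known. The labels do not say that replicate numbers pair the animals, and the study's test was unpaired, so the main fit used no pairing. Deviations of same-numbered animals correlated at 0.17, -0.01 and 0.21 over the 104 probes. Targets came from the array files and neighbouring genes from a RefSeq gene table of Sscrofa11.1, without coordinates because the array files name no build. The alternatives were other background corrections, normalizations, tests and filters, the authors' values, a replicate block and each animal left out. Plots used matplotlib 3.10.9 in Python 3.11.15.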

Additional observations from a re-analysis of the deposited data

How the results depend on the processing

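Over 20 alternatives for each of the 9 members, no member reached the unadjusted threshold of 0.05, and the direction changed in 27 of 180 differences. In 36 of the 180 (the filter on dim probes, the methods' test, limma with trend and the replicate block) the estimate is that of the main values and could not change, so the 27 fall among the others. Without normalization between arrays let-7a, let-7c, let-7d-3p, let-7d-5p, let-7e and let-7f were at -0.25, -0.28, -0.016, -0.18, -0.096 and -0.21, where the median of all probes was at 0.27. With detected probes scaled to one median, let-7a, let-7c, let-7d-5p and let-7f were at -0.083, -0.11, -0.015 and -0.044, where the median of all probes was at 0.44. So all members lay below the median of all 322 probes under both, of which only 104 were well above background on all arrays. The scaling sets the median of these 104 equal on every array. Under it let-7d-3p, let-7e and miR-98 were at 0.15, 0.067 and 0.26, and let-7g and let-7i at -0.17 and -0.12. The part of the unequal empty spots in the median of all probes was not tested. miR-98 was at -0.053 with plain subtraction and let-7d-3p at -0.0056 with normexp against the nearest empty spots. let-7i was at 0.028 with cyclic loess and 0.0033 with the median of repeat spots. On the authors' processed values, in limma and in the methods' test, let-7i was at 0.0046 and let-7c at -0.036. With 1 animal left out the differences ran from -0.0016 to 0.14 in let-7a, -0.10 to 0.10 in let-7c, -0.077 to 0.15 in let-7d-3p, -0.085 to 0.0060 in let-7g, -0.090 to 0.055 in let-7i and -0.16 to 0.33 in miR-98. The cause was not tested.

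Over all probes the unadjusted count of 34 became 181 with scaling to detected probes (171 after adjustment), 15 without normalization and 5 with the filter on dim probes, which tests fewer probes. Of the 181, 176 were higher in paced animals, whose empty spots were brighter. The SE was 0.19 for every member under that scaling and 0.33 for every member without normalization, so a member's own spread did not enter there. With 1 animal left out the unadjusted count ran from 19 (without sham replicate 2) to 67 (without paced replicate 1), and the adjusted count from 0 to 9. It was 21 without paced replicate 3, and the adjusted count was 1 without paced replicate 2. With the replicate number as a block the count was 33 (9 higher and 24 lower, against 11 and 23) and that of the members 0, so the block changed no call of a member. The block did change the SE, from 0.16 to 0.078 for let-7d-5p, 0.17 to 0.095 for let-7e and 0.12 to 0.071 for let-7f. The SE rose slightly for let-7d-3p and let-7g and fell for the other members. Of the 3 numbers, 2 correlated best with their own. The median rank of the members stayed at 29, or between 26 and 30 with 1 animal left out. Signal over background limits let-7d-3p and miR-98.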
